A study of Homo sapiens with 6 samples.

Results

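The globin genes of K562 cells were examined in RNA-seq libraries with and without knockdown of a long noncoding RNA. The family was taken by name as 10 genes, HBZ, HBM, HBA2, HBA1 and HBQ1 of the alpha cluster and HBE1, HBG2, HBG1, HBD and HBB of the beta cluster. Of these, 9 were matched among the 12486 genes of the expression table, 4 from the alpha cluster and 5 from the beta cluster, and HBM was not analysed here. K562, an established line from human chronic myeloid leukemia with the Bcr-Abl fusion, has erythroid features and makes embryonic and fetal hemoglobin. Lentiviral shRNA was stably expressed in the cells, directed at luciferase in the controls (sh-luc, 3 libraries) and, with a single shRNA, at a noncoding RNA in the knockdown (sh-up91, 3 libraries). That noncoding RNA is lncRNA-up91 in the labels and lncRNA-IUR1 in the paper, and its level was not analysed here. One library of each group carries no replicate number and is called unnumbered, and the others are r1 and r2.

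Hemoglobin is a tetramer of alpha-like and beta-like chains, each holding a heme group. The genes of each cluster lie broadly in the order in which they are used in development. The embryo uses zeta (HBZ) and epsilon (HBE1) chains, the fetus alpha (HBA1 and HBA2) with gamma (HBG1 and HBG2) chains, and the adult alpha with beta (HBB) chains and a small amount of delta (HBD). The switches between them are set by enhancers outside the clusters, by erythroid activators such as GATA1 and KLF1, and by repressors of the fetal genes.

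In GRCh38 the alpha cluster, from HBZ to HBQ1, covers chr16:152644-181179 on the plus strand, a span of 28536 bases. The beta cluster, from HBE1 to HBB, covers chr11:5225464-5269945 on the minus strand, a span of 44482 bases. Each of the 10 genes has 3 exons. The coding sequences are 429 bases long (stop codon included) in the alpha-like genes HBZ, HBA2, HBA1 and HBQ1, and 444 bases in the beta-like genes. HBA1 and HBA2 have the same coding sequence, and HBG1 and HBG2 differ at 2 of 444 coding bases. HBE1 differs from either gamma gene at 73 bases (83.6% identity). Of the 100-base windows of the HBA1 transcript, 79.7% also occur in the HBA2 transcript, and 53.9% of those of HBG1 occur in HBG2. The values of the members of each pair are therefore uncertain, since reads from shared stretches could be assigned to either copy, and the sums of the pairs are given beside them.

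One of the sh-luc libraries stood apart from the other 5. On the first principal component of log2(FPKM + 1), with 59.3% of the variance, sh-luc unnumbered lay at -19.8. The other sh-luc libraries lay at 4.12 (r1) and 1.61 (r2), and the sh-up91 libraries at 4.79 (unnumbered), 13.0 (r1) and -3.75 (r2). FPKM is the number of fragments per kilobase of transcript, scaled to the size of the library. The globin results below are given with all 6 libraries, and without sh-luc unnumbered where leaving it out moved a fold change or its sign most.

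Globin RNA in these K562 cells came mainly from the gamma, alpha and zeta genes. By mean FPKM over the 6 libraries, which compares genes per length, the order was HBG2 (2915), HBA1 (1297), HBG1 (1271), HBZ (711), HBE1 (172), HBA2 (88.8), HBQ1 (53.2), HBD (1.29) and HBB (0.212). HBG2 was rank 23 of 12486 genes and HBB was rank 11888. HBA1 and HBG1 were neighbours in that order that did not differ beyond their spread, since HBG1 was above HBA1 in sh-luc unnumbered and sh-up91 r2 and below it in the other libraries. The plot of all members by library shows the same order in both groups apart from HBA1 and HBG1.

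**Figure D1:**
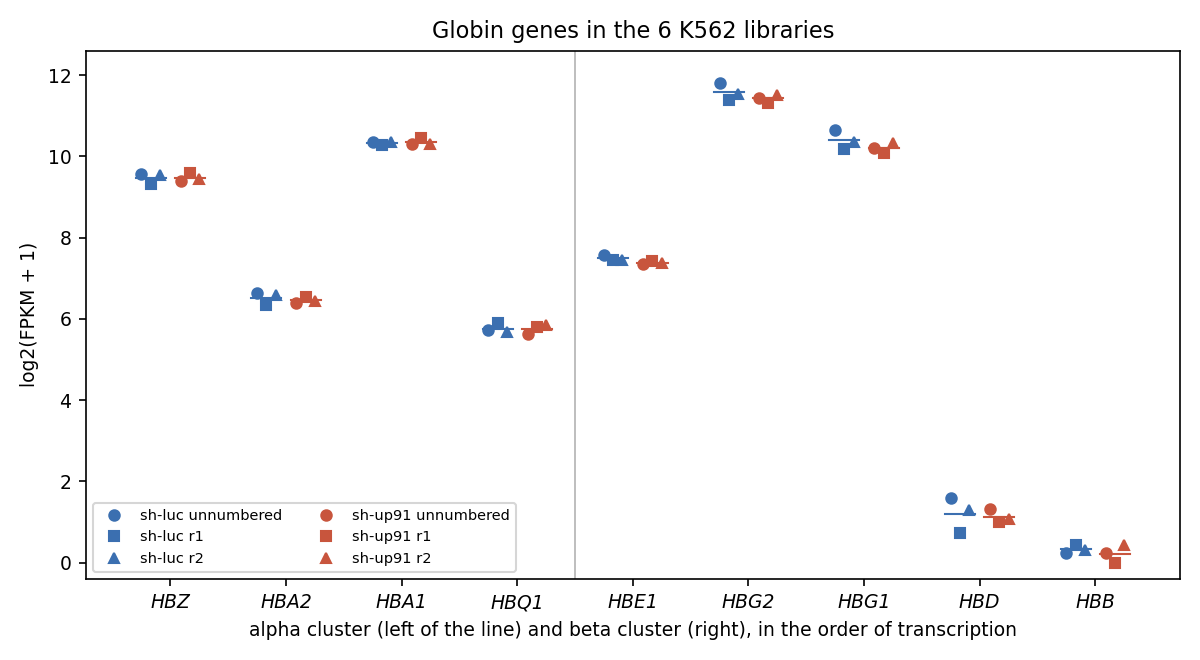
Log2(FPKM + 1) of the 9 globin genes in each library (points; blue, sh-luc; red, sh-up91; circle, unnumbered; square, r1; triangle, r2), with short lines at the mean of 3 libraries. HBG2 is highest and HBB lowest in both groups, and the distance between groups is small beside the distance between genes.

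In the alpha cluster, HBZ, the embryonic chain, was expressed at 754, 636 and 744 FPKM in sh-luc and at 674, 765 and 691 FPKM in sh-up91 (always in the order unnumbered, r1, r2). The highest and the lowest library were sh-up91 r1 and sh-luc r1, and the groups overlapped. The means were 711 ± 65.4 FPKM in sh-luc and 710.1 ± 48.4 FPKM in sh-up91 (SD, n = 3). On the log2(FPKM + 1) scale, on which all fold changes here are given and which understates changes of low genes, the difference of sh-up91 from sh-luc was -0.00056 (standard error 0.079). Its sign turned positive with quantile normalization (0.053), with an equal sum of the other genes (0.013) and without any one of 4 libraries.

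The adult and fetal alpha chain is encoded by HBA1 and HBA2. HBA1 was at 1301, 1240.4 and 1315 FPKM in sh-luc and at 1258, 1401 and 1268 FPKM in sh-up91. HBA2 was at 97.8, 79.9 and 95.2 FPKM in sh-luc and at 83.2, 91.3 and 85.7 FPKM in sh-up91. Both pairs of groups overlapped, with sh-luc r1 the lowest library for either gene. The log2 fold change was 0.02 (standard error 0.062) for HBA1 and -0.06 (standard error 0.081) for HBA2. Single libraries moved the value of HBA2, to -0.0095 without sh-luc unnumbered, -0.03 without sh-luc r2, -0.04 without sh-up91 unnumbered, -0.10 without sh-up91 r1 and -0.15 without sh-luc r1. Since the copies cannot be separated over most of their length, the ratio of HBA1 to HBA2, between 13.3 and 15.5 in the 6 libraries, is uncertain. Their sum was 1399, 1320.3 and 1411 FPKM in sh-luc and 1341, 1492 and 1353 FPKM in sh-up91. The log2 fold change of the sum was 0.02.

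HBQ1, the theta globin gene at the end of the cluster, encodes a chain with no established place in hemoglobin. It was at 51.5, 58.2 and 50.5 FPKM in sh-luc and at 48.0, 54.6 and 56.2 FPKM in sh-up91. Here sh-luc r1 was the highest library, the opposite of its place for HBZ and HBA1, and the groups overlapped (log2 fold change -0.01, standard error 0.080). The sign for HBQ1 turned positive with an equal sum of the other genes (0.0007), without sh-luc r1 (0.050) and without sh-up91 unnumbered (0.055), and that for HBA1 turned negative without sh-luc r1 (-0.0012) or sh-up91 r1 (-0.026). Summed over the 4 genes, alpha-like FPKM was 2204, 2015 and 2205 in sh-luc against 2063, 2312 and 2100.2 in sh-up91. HBZ made up 34.2%, 31.6% and 33.7% of that sum in sh-luc against 32.7%, 33.1% and 32.9% in sh-up91. HBA1 and HBA2 together made up between 63.5% and 65.5%, so that the shares of HBZ and of this pair were similar in every library. The small share of HBQ1 lay between 2.29% (sh-luc r2) and 2.89% (sh-luc r1).

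In the beta cluster, nearly all of the FPKM came from HBG2, HBG1 and HBE1. A stretch of exon 2 shows how alike they are and where reads can tell them apart. It is coding positions 212 to 241, counted from 1 at the start codon, read on the minus strand of GRCh38 at chr11:5269528-5269557 (HBE1), chr11:5254366-5254395 (HBG2) and chr11:5249442-5249471 (HBG1). Capitals mark bases that differ from HBG2, of which there are 8 in HBE1 and 1 in HBG1.
HBE1: ccttTggagatgcTatTaaAAacAtggaCA
HBG2: ccttgggagatgccataaagcacctggatg
HBG1: ccttgggagatgccaCaaagcacctggatg

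HBE1, the embryonic epsilon chain, was expressed at 189, 174 and 173 FPKM in sh-luc and at 163, 169 and 165 FPKM in sh-up91. Each sh-up91 library was below each sh-luc library, with a gap between 169 FPKM (sh-up91 r1) and 173 FPKM (sh-luc r2), and sh-luc unnumbered was the highest of the 6. The means were 179 ± 8.85 FPKM in sh-luc and 166 ± 3.49 FPKM in sh-up91 (SD, n = 3), 7.4% lower in sh-up91. The log2 fold change was -0.11 (standard error 0.057, 95% confidence interval -0.24 to 0.018), lower in 3 of 3 sh-up91 libraries, with an adjusted p of 0.930 from limma over 12276 genes. An exact two-sided permutation test gave p = 0.1, below which a test of 3 against 3 cannot go. Without sh-luc unnumbered the log2 fold change was -0.07 (standard error 0.053).

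HBE1 was the only one of the 9 genes whose groups did not overlap, also with median-ratio scaling and with an equal sum of the other genes, alternatives applied to this count after seeing the data. Among all genes tested, 372 (3.03%) had each sh-up91 library below each sh-luc library and 496 (4.04%) had each above. With 1 of 9 globin genes lower and 0 of 9 higher, the count of the family rests on a single gene.

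The gamma chains of fetal hemoglobin come from HBG2 and HBG1. HBG2 was expressed at 3565, 2677 and 2969 FPKM in sh-luc and at 2789, 2559 and 2930.4 FPKM in sh-up91. HBG1 was expressed at 1600.4, 1166 and 1306 FPKM in sh-luc and at 1178, 1089 and 1284 FPKM in sh-up91. Both genes ranked the libraries in the same order, with sh-luc unnumbered highest, then sh-luc r2, sh-up91 r2, sh-up91 unnumbered, sh-luc r1 and sh-up91 r1, so that the groups interleaved. The range between libraries, 1.39-fold for HBG2 and 1.47-fold for HBG1 from lowest to highest, was wider than for any of the alpha-like genes.

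The mean of HBG2 was 3070.2 ± 453 FPKM in sh-luc and 2759 ± 187 FPKM in sh-up91, and that of HBG1 was 1358 ± 222 and 1184 ± 97.8 FPKM (SD, n = 3). The difference was smaller than the SD of sh-luc for both genes. The log2 fold change was -0.15 for HBG2 (95% confidence interval -0.37 to 0.078) and -0.19 for HBG1 (-0.43 to 0.053), each with an adjusted p of 0.930 from limma. Exact two-sided permutation tests gave p = 0.4 for HBG2 and p = 0.3 for HBG1. One library set most of this size. Without sh-luc unnumbered the log2 fold changes were -0.03 for HBG2 and -0.06 for HBG1. Without sh-luc r1, the lowest sh-luc library for both, they were -0.24 and -0.29. The sum of HBG1 and HBG2 had a log2 fold change of -0.16 with all 6 libraries.

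**Figure D2:**
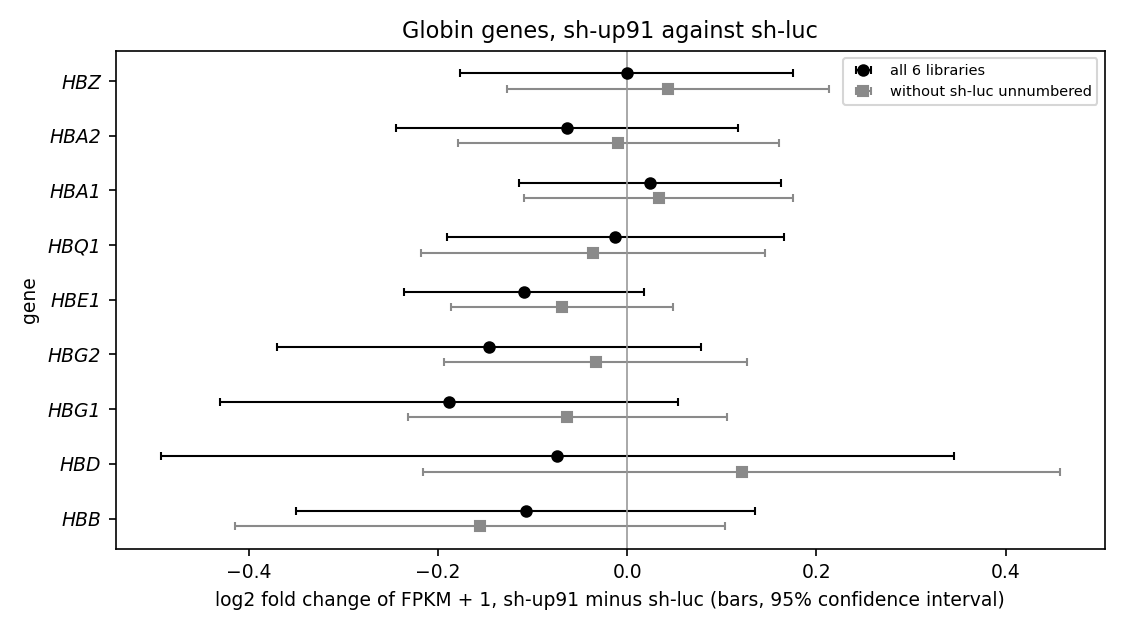
Log2 fold change of FPKM + 1 (sh-up91 minus sh-luc) of each globin gene with its 95% confidence interval from limma, with all 6 libraries (black circles) and without sh-luc unnumbered (grey squares). Each interval includes 0, and the values of HBG2 and HBG1 lie closer to 0 without that library.

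HBD and HBB, the adult beta-like genes, were nearly silent. HBD was at 2.02, 0.65 and 1.46 FPKM in sh-luc and at 1.48, 1.01 and 1.11 FPKM in sh-up91, with sh-luc unnumbered highest, sh-luc r1 lowest and the sh-up91 libraries between. HBB was at 0.17, 0.34 and 0.25 FPKM in sh-luc and was listed at 0.17, 0 and 0.34 FPKM in sh-up91. The HBB values lay within 0.005 FPKM of 2, 4 and 3 steps in sh-luc and of 2, 0 and 4 steps in sh-up91, for a step of between 0.0838 and 0.085 FPKM, as a handful of fragments would give. The log2 fold change was -0.07 (standard error 0.19) for HBD and -0.11 (standard error 0.11) for HBB. That of HBD was 0.12 without sh-luc unnumbered, and that of HBB was -0.60 with a pseudocount of 0.1 and 0.00081 without sh-up91 r1.

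The upstream sequence of HBD is shown because HBD lies between the gamma genes and HBB and was far below HBG2 in each library. Of the 10 family members, 2 (HBD and HBM) were matched in a RefSeq promoter table of GRCh38.p14. The 160 bases before the HBD start, at chr11:5234484-5234643 on the minus strand, were searched on both strands for the letters of the CCAAT box and its variant CCAAC, of the KLF1-type box CACCC, of the GATA factor motif GATAA and of the TATA-like ATAAA. The matches do not overlap in this window, and capitals mark them.
HBD promoter: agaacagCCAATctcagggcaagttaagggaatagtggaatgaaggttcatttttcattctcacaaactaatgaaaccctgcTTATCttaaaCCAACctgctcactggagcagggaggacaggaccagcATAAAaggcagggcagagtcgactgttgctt
CCAAT lies 153 to 149 bases before the start, CCAAC 68 to 64 bases, ATAAA 31 to 27 bases and GATAA, on the opposite strand, 78 to 74 bases. CACCC is not in this window. Among 35116 promoter windows of the same length, 24.5% hold CCAAT, 22.3% CCAAC, 41.4% CACCC, 13.1% GATAA and 22.4% ATAAA. A match is a description of the sequence and was not tied to any level.

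Summed over the 5 genes, beta-like FPKM was 5356, 4019 and 4449 in sh-luc against 4131, 3818 and 4381 in sh-up91. The fetal genes HBG1 and HBG2 made up 96.4%, 95.6% and 96.1% of that sum in sh-luc against 96.0%, 95.5% and 96.2% in sh-up91. HBE1 made up 3.53%, 4.33% and 3.90% in sh-luc against 3.94%, 4.44% and 3.76% in sh-up91. The share of HBE1 overlapped between the groups, although its FPKM did not. HBD and HBB together made up between 0.0246% and 0.0409% in the 6 libraries. The fetal share lay so near its ceiling in every library that it could vary little, and it does not show how steady the gamma genes were.

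The ratio of alpha-like to beta-like FPKM was 0.411, 0.501 and 0.496 in sh-luc against 0.499, 0.606 and 0.479 in sh-up91. It was lowest in sh-luc unnumbered, where the gamma genes were highest, and highest in sh-up91 r1, where HBZ and HBA1 were highest and the gamma genes lowest. The other libraries lay between 0.479 and 0.501 and did not separate by group. All globin genes together summed to 7561, 6033 and 6655 FPKM in sh-luc and to 6194, 6131 and 6481 FPKM in sh-up91. That was 1.25%, 1.03% and 1.14% of all listed FPKM in sh-luc against 1.06%, 1.03% and 1.12% in sh-up91. The mean sum was 6750 ± 768 FPKM in sh-luc and 6269 ± 187 FPKM in sh-up91 (SD, n = 3), and without sh-luc unnumbered the sh-luc mean was 6344 FPKM. In bulk RNA, fewer globin-expressing cells and less globin RNA per cell cannot be told apart.

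**Figure D3:**
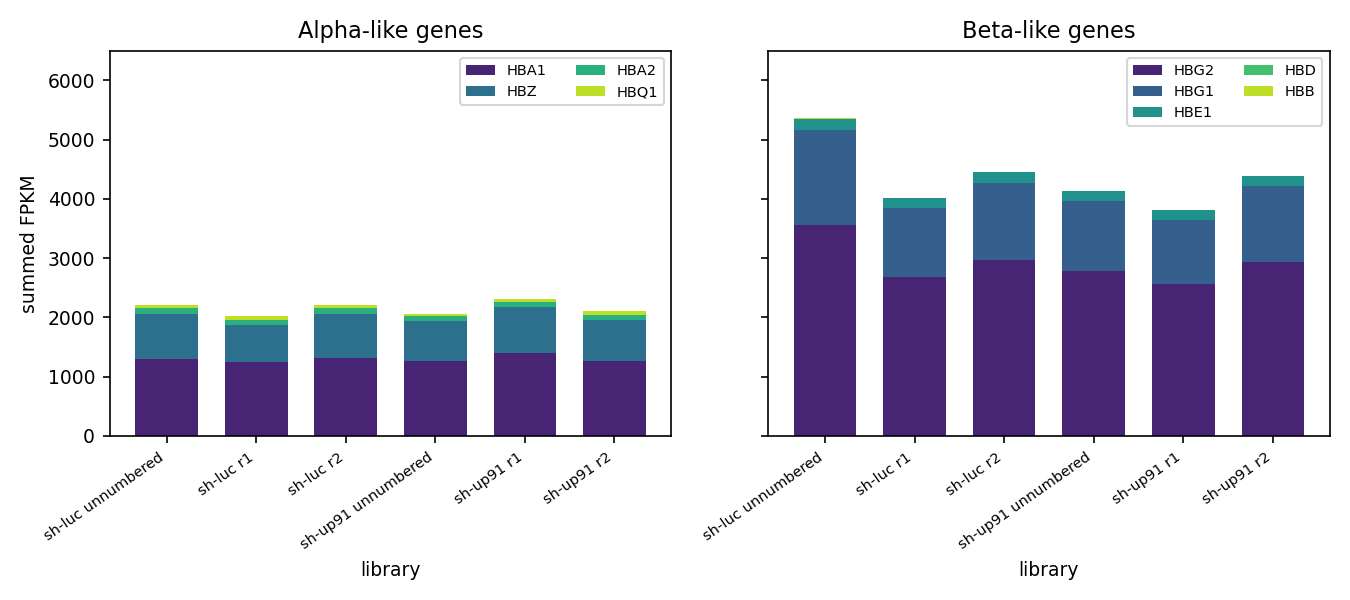
Stacked bars of FPKM for the alpha-like genes (left) and the beta-like genes (right) in each library, on one axis from 0. The alpha-like sums lie between 2015 and 2312 FPKM, and the beta-like sum of sh-luc unnumbered (5356 FPKM) stands above the other 5.

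Of the 9 globin genes, 0 had an adjusted p under 0.05 in limma, and so did 0 of all 12276 genes tested (0%). At an unadjusted p under 0.05 there were 0 globin genes, and 325 of all genes (2.65%). The latter count was 854 without sh-luc r1, 712 without sh-up91 r2 and 156 without sh-up91 unnumbered. Without sh-luc r1, the unadjusted p of limma was 0.019 for HBG1, 0.032 for HBG2 and 0.035 for HBD. The smallest adjusted p of any globin gene under any of 15 alternatives was 0.667. The median log2 fold change was -0.0065 for the 4 alpha-like genes (1 higher, 3 lower) and -0.11 for the 5 beta-like genes (0 higher, 5 lower), beside 0.02 for all genes (7119 higher, 5157 lower). Without sh-luc unnumbered these medians were 0.01, -0.06 and 0.0047. Leaving out sh-luc r1 gave a beta-like median of -0.24, and leaving out sh-up91 r2 gave -0.19.

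Some members moved together from library to library and others did not. Over the 6 libraries, Pearson's r of log2(FPKM + 1) was 0.995 between HBG1 and HBG2, 0.927 between HBZ and HBA2 and 0.855 between HBZ and HBA1. It was 0.344 between HBZ and HBG2 and -0.16 between HBA1 and HBG2. Without sh-luc unnumbered, over 5 libraries, these 5 values were 0.981, 0.938, 0.918, -0.030 and -0.42. HBA2 was as close to HBG2 (0.627) as to HBA1 (0.626) over 6 libraries, and at 0.241 and 0.757 over 5. HBQ1 had an r of -0.32 with HBZ, -0.38 with HBA2 and -0.78 with HBD, and of -0.27, -0.33 and -0.91 over 5 libraries. The r of HBQ1 with HBZ and HBA2 was thus negative, but over so few libraries such values are imprecise, and HBD was nearly silent. The values of the near-identical pairs may share reads. The r of HBE1 with HBG2 was 0.720 over 6 libraries and -0.16 over 5, so that it rested on sh-luc unnumbered. These correlations describe libraries that share all their genes and the same scaling.

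The mean level of the integrated stress response genes moved inversely to the beta-like sum, though not each gene did. In this response, kinases that include EIF2AK1, the heme-regulated inhibitor that ties protein synthesis to heme supply in red cell precursors, raise translation of the factor ATF4 and so its target genes. Of 20 genes in the list, 19 were matched. Their summed FPKM was 1128, 2131 and 1898 in sh-luc against 2101, 2320 and 1790 in sh-up91. The sum was lowest in sh-luc unnumbered, the library with the most gamma globin, and highest in sh-up91 r1, the library with the least. Its most abundant gene was DDIT4, a stress-induced inhibitor of mTORC1, at 169, 599 and 492 FPKM in sh-luc and 551, 620 and 479 FPKM in sh-up91. ATF4 (252 to 297.5 FPKM) and EIF2AK1 (84.2 to 93.9 FPKM) themselves varied little. Sh-luc unnumbered was the lowest library for 16 of the 19 genes and the highest for 2, EIF2S1 and EIF2AK3, which followed the gamma genes in being lowest in sh-up91 r1 and were named after their values were seen.

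Pearson's r between the mean log2(FPKM + 1) of these 19 genes and the log2 of the beta-like sum was -0.98 over 6 libraries. It was -0.93 over 5 libraries without sh-luc unnumbered, and -0.84 over 4 libraries without sh-luc unnumbered and sh-up91 r1, which lay farthest from the median. With the alpha-like sum r was -0.11 over 6 libraries, 0.335 without sh-luc unnumbered, and -0.62 over 4 libraries without sh-up91 r1 and sh-luc r1, the farthest from its median. The value for the beta-like sum was thus negative in each of these subsets, and that for the alpha-like sum changed sign with the libraries used. Of the 19 genes, 16 were higher and 3 lower in sh-up91, and 0 were called. Their median log2 fold change was 0.30 with all libraries, 0.04 without sh-luc unnumbered, 0.16 without sh-up91 r1 and 0.47 without sh-up91 r2. SLC7A11, the cystine transporter, had the smallest p of the list (log2 fold change 0.44, standard error 0.21, adjusted p 0.930 in limma, and 0.15 without sh-luc unnumbered). The mean of these genes also ordered the 6 libraries as the first principal component of all genes did, so the relation cannot be told apart from that main difference between libraries. The part of the stress response in the gamma globin levels was not tested.

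**Figure D4:**
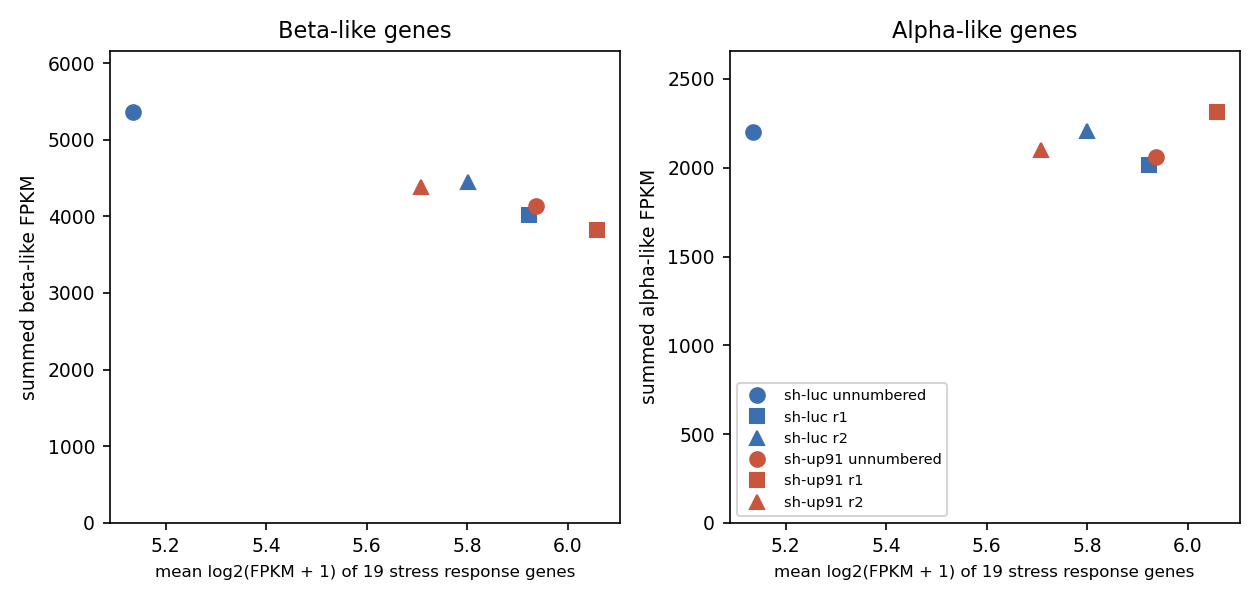
Summed FPKM of the beta-like genes (left) and of the alpha-like genes (right) against the mean log2(FPKM + 1) of 19 stress response genes, one point per library (blue, sh-luc; red, sh-up91; circle, unnumbered; square, r1; triangle, r2). The beta-like sum is highest in sh-luc unnumbered, where the stress genes are lowest, and lowest in sh-up91 r1, where they are highest, and the alpha-like sum is highest in sh-up91 r1.

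Other gene lists were compared with the globin genes by the medians of their fold changes. For 11 of the 15 lists, the alpha cluster included, the median changed sign under at least 1 alternative and gives no direction. It kept its sign for the beta cluster, the stress response list, AHSP alone in its list, and the stromal and epithelial markers. The members of the beta cluster are not independent, since HBG1 and HBG2 may share reads. HBD and HBB were nearly silent, and HBD turned to 0.12 without sh-luc unnumbered. For the stromal and epithelial markers (3 genes) the median was 0.052, and its size was not steady. It was 0.0024 with a minimum mean of 1 FPKM, 0.0076 without sh-up91 unnumbered and 0.092 with a pseudocount of 0.1. The activators of the globin genes were expressed in all 6 libraries. GATA1, the main erythroid transcription factor, was at 200.4, 191 and 199.8 FPKM in sh-luc and at 182, 188 and 199.98 FPKM in sh-up91 (log2 fold change -0.05, standard error 0.057). KLF1, which drives adult beta globin, was at 132, 106 and 118 FPKM in sh-luc and at 107, 99.2 and 126 FPKM in sh-up91 (log2 fold change -0.10, standard error 0.10). The value for KLF1 depended on single libraries, at -0.02 without sh-luc unnumbered, -0.03 without sh-up91 r1, -0.18 without sh-luc r1 and -0.20 without sh-up91 r2, and that for GATA1 was -0.02 without sh-up91 unnumbered and -0.09 without sh-up91 r2. Both groups overlapped for either gene. NFE2, which binds the distal enhancers of both clusters, was at 165 to 184 FPKM, and the bridging factor LDB1 at 101 to 122 FPKM. LMO2, its partner, had the smallest p of the list and was at 76.6, 60.9 and 60.0 FPKM in sh-luc and 58.1, 53.2 and 63.7 FPKM in sh-up91 (log2 fold change -0.17, standard error 0.10, adjusted p 0.930 in limma). It was -0.05 without sh-luc unnumbered and -0.10 without sh-up91 r1. Sh-luc unnumbered was highest and sh-up91 r1 lowest for KLF1 and LMO2, as for the gamma genes, and the reverse held for NFE2 and 1 other activator. In all, sh-luc unnumbered was the highest library for 3 of the 10 activators and the lowest for 5, LDB1 among them. Of the 10 activators, 5 were higher and 5 lower in sh-up91 and 0 were called (median log2 fold change -0.0098).

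Several repressors of the fetal genes were expressed too, beside the gamma genes. Of 12 in the list, 11 were matched. BCL11A was not among these 11, and its level was not analysed here. ZBTB7A, a direct repressor of the gamma genes, was at 10.8, 7.66 and 9.18 FPKM in sh-luc and at 8.44, 8.74 and 9.13 FPKM in sh-up91. MYB (93.4 to 109 FPKM), the chromatin remodeler CHD4 (92.4 to 102 FPKM) and the demethylase KDM1A (80.2 to 85.5 FPKM) were the most abundant. SOX6, which silences HBE1 in adult cells, was near the floor at 1.73, 2.29 and 2.09 FPKM in sh-luc and 2.26, 2.59 and 2.27 FPKM in sh-up91, and had the smallest p (log2 fold change 0.15, standard error 0.094, adjusted p 0.930 in limma, and 0.08 without sh-luc unnumbered). In all, 7 were higher, 4 lower and 0 called (median 0.03). Of 4 RNA-binding and other regulators of the fetal stage, 1 was higher and 3 lower (median -0.02). IGF2BP1, a fetal RNA-binding protein, was at 59.9 to 66.8 FPKM, HIC2 at 43.2 to 50.9 FPKM and IGF2BP3 at 23.8 to 29.5 FPKM. For IGF2BP3 the log2 fold change was -0.09 (standard error 0.079). It was -0.02 without sh-luc unnumbered, -0.05 without sh-up91 r1 and -0.15 without sh-luc r2.

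AHSP, the chaperone that holds free alpha chains, was the only gene of its list that was matched. It was at 5.95, 5.65 and 5.29 FPKM in sh-luc and at 6.04, 8.24 and 6.83 FPKM in sh-up91. Each sh-up91 library was above each sh-luc library, narrowly for the unnumbered ones, beside 4.04% of all genes tested, and sh-up91 r1, the library with the most HBA1, was the highest. The log2 fold change was 0.27 (standard error 0.11), with an adjusted p of 0.930 from limma and p = 0.1 in an exact permutation test. It was 0.30 without sh-luc unnumbered and 0.16 without sh-up91 r1, so that sh-up91 r1 set a large part of it. With median-ratio scaling the AHSP groups overlapped, with sh-luc unnumbered at 6.10 and sh-up91 unnumbered at 5.96.

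Heme synthesis genes were next compared, and the median of this list was close to that of all genes. Of 19 genes for heme synthesis and transport, 18 were matched, 13 were higher and 5 lower in sh-up91, and 0 were called (median log2 fold change 0.02, and -0.00095 with median-ratio scaling). Sh-luc unnumbered was the lowest library for 9 of the 18, of which 7 were highest in sh-up91 r1, and the highest for 4. ALAS2, the erythroid form of the first enzyme, was at 6.51 to 7.75 FPKM. BLVRB (493 to 557 FPKM), UROD (413 to 446 FPKM) and the mitochondrial TMEM14C (219.6 to 237 FPKM) were the most abundant. PPOX, the enzyme before ferrochelatase, had the smallest p, with 15.8, 19.6 and 19.1 FPKM in sh-luc and 23.9, 24.4 and 18.7 FPKM in sh-up91 (log2 fold change 0.28, standard error 0.11, adjusted p 0.930 in limma). The PPOX groups overlapped through sh-up91 r2.

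Genes beside the clusters were examined as well. NPRL3, whose introns hold the alpha globin enhancers, was at 42.4, 53.0 and 53.1 FPKM in sh-luc and at 53.5, 61.7 and 51.1 FPKM in sh-up91 (log2 fold change 0.16, standard error 0.10). It was 0.06 without sh-luc unnumbered and 0.08 without sh-up91 r1. NPRL3 was lowest in sh-luc unnumbered and highest in sh-up91 r1, and its groups overlapped. Of 11 neighbours of the alpha cluster, 10 were matched, 5 were higher and 5 lower (median -0.0078). POLR3K was at 103 to 125 FPKM, MPG at 68.4 to 77.9 FPKM and SNRNP25, with the smallest p, at 68.5 to 83.6 FPKM (log2 fold change -0.14, standard error 0.068, and -0.08 without sh-luc unnumbered). Sh-luc unnumbered was the highest library for 2 of the 10 matched genes, SNRNP25 among them, and the lowest for 4, with NPRL3 and MPG. Beside the beta cluster, 12 of 17 genes were matched, 6 higher and 6 lower (median 0.01, negative under 4 alternatives). They include olfactory receptor genes, of which OR51B5 was at 32.2 to 37.9 FPKM and OR51B4 at 13.1 to 17.3 FPKM. OR52D1 had the smallest p, at 3.99, 2.32 and 2.24 FPKM in sh-luc and 1.42, 1.05 and 2.47 FPKM in sh-up91 (log2 fold change -0.55, standard error 0.21, adjusted p 0.930 in limma). Its groups overlapped, and it was -0.35 without sh-luc unnumbered. TRIM21 was at 6.89 to 8.47 FPKM. Of these 12 genes, sh-luc unnumbered was highest for 5, TRIM21 and OR52D1 among them, and lowest for 3, with OR51B5.

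Markers of lineage described the cells in which the globin genes were measured. All 17 red cell membrane genes were matched, with 10 higher and 7 lower in sh-up91 (median 0.01). That median changed sign with median-ratio scaling (-0.0050), with quantile normalization (-0.02) and without sh-luc r1 (-0.01), as did those of 10 other lists. RHAG (322 to 384 FPKM), GYPC (249 to 316 FPKM) and the transferrin receptor TFRC (95.3 to 156 FPKM) were the most abundant. Sh-luc unnumbered was the highest library for 5 of the 17 genes, with RHAG, TFRC and GYPB, and the lowest for 7, with GYPC. GYPB had the smallest p of that list, with 77.5, 48.3 and 54.6 FPKM in sh-luc and 43.8, 47.5 and 50.2 FPKM in sh-up91 (log2 fold change -0.32, standard error 0.14, and -0.12 without sh-luc unnumbered). Of the 10 megakaryocyte markers 3 were matched, led by GP1BB (93.4 to 107 FPKM), of the 12 myeloid markers 6, led by LYZ (107 to 119 FPKM), and of the 8 stromal and epithelial markers 3, led by KRT19 (57.2 to 68.2 FPKM). In sh-up91, 3 megakaryocyte markers were higher and 0 lower. Their log2 fold changes were small, at 0.0056 (GP1BB), 0.023 (ITGA2B) and 0.024 (GP1BA). Without sh-luc unnumbered ITGA2B (-0.04) and GP1BA (-0.03) turned negative. Of the myeloid markers 5 were higher and 1 lower (AZU1, log2 fold change -0.21). Of the stromal and epithelial markers 2 were higher, with KRT19 (0.09), and 1 lower (EPCAM, -0.09, and -0.0024 without sh-luc unnumbered). Lymphoid markers were 2 higher and 2 lower. Of the 8 lymphoid markers 5 were matched, and the most abundant, CD3D, was at 3.51 to 4.96 FPKM. Summed marker levels of the lymphoid list were 7.15, 6.16 and 5.77 FPKM in sh-luc and 6.92, 6.30 and 5.22 FPKM in sh-up91, and the sums of the 4 marker lists overlapped between groups. GAPDH, a housekeeping gene, was at 2322 to 2511 FPKM, with a log2 fold change of 0.03 (standard error 0.056). That value was 0.0057 without sh-luc r1 and 0.011 with median-ratio scaling.

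**Figure D5:**
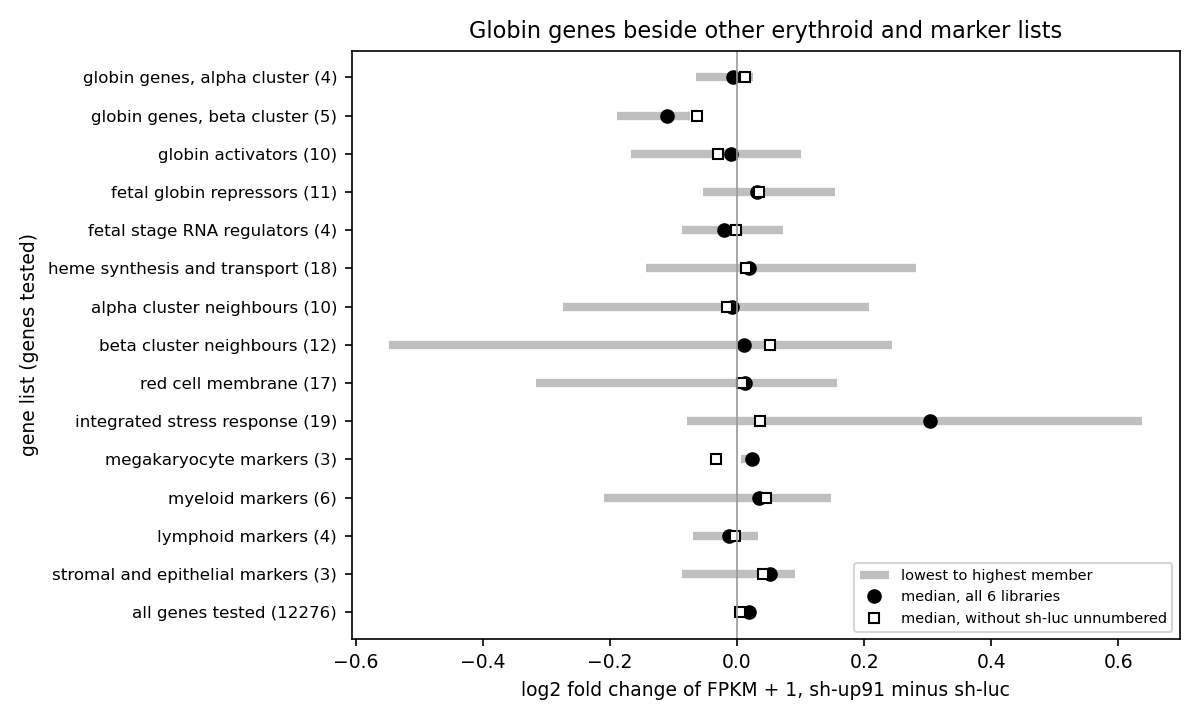
Median log2 fold change of FPKM + 1 (sh-up91 minus sh-luc) of the gene lists with all 6 libraries (filled circles) and without sh-luc unnumbered (open squares), grey bars from the lowest to the highest member, and the number of genes tested in parentheses. The list in which AHSP alone was matched is not drawn. For all genes tested only the medians are drawn. The stress response list has the median farthest from 0 (0.30), which lies at 0.04 without sh-luc unnumbered, and that of the beta cluster moves from -0.11 to -0.06.

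The genes whose pattern was most like the globin sums were sought among the 6307 genes whose mean FPKM was 10 or more, by Pearson's r over the 6 libraries. For the beta-like sum these were ZBTB9 (r = 0.998), HSPE1 (0.995), MRPS23 (0.995), POLR1C (0.995) and CTSC (0.994). HSPE1, a mitochondrial chaperonin, was at 218, 134 and 151 FPKM in sh-luc and at 139, 122 and 153 FPKM in sh-up91, with sh-luc unnumbered highest and sh-up91 r1 lowest. Without the 2 libraries farthest from the median of the sum, r of these 5 genes was between 0.952 and 0.986. For the alpha-like sum the 5 genes were NQO2 (r = 0.973), RHOC (0.968), FDPS (0.958), S100A1 (0.957) and CYC1 (0.957). NQO2, a quinone reductase, was at 162, 150.4 and 160.1 FPKM in sh-luc and at 152, 164 and 154 FPKM in sh-up91. Without the 2 libraries farthest from the median, r of these 5 genes was between 0.833 and 0.983. The highest of so many correlations over 6 libraries are high by selection, and no p is given for them.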

How the data were processed

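RNA-seq libraries from K562 cells (3 sh-luc, 3 sh-up91) were used, described in the methods as independent groups of cells. According to the methods, the authors trimmed and masked the reads, mapped them to hg38 and computed RPKM with SAMtools 0.1.19, and the deposited values are FPKM with 2 decimals. The aligner, annotation and treatment of multiply mapped reads are not given in the sources used here. The authors also deposited a score (the z-score of FPKM), a cluster number and a fraction (cluster membership), which were not used. Library depth is not given, so the precision of low values is known only from their steps. The smallest SD of any listed gene over the libraries was 0.0501 FPKM, so nearly constant genes are outside the comparison.

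Symbols were matched by Entrez identifier for 12363 of 12486 genes. Genes whose mean was 0.1 FPKM or more (12276) entered a fit on log2(FPKM + 1) with limma 3.58.1 in R 4.3.3 (lmFit, eBayes with a trend, group only), with Benjamini-Hochberg adjustment over all of them and a threshold of 0.05. The step was tested on simulated data. All tests were two-sided, and p-values measure the spread between these libraries only. Python 3.11.15, numpy 2.4.6, pandas 2.3.3 and matplotlib 3.10.9 served the rest, with sequences from GENCODE and RefSeq. The members and the 15 gene lists were chosen with earlier results of these data known, and lists are described by counts and medians. Named genes were all listed globin genes, the 3 most abundant members and the member with the smallest unadjusted p of each list, the 5 genes most like each globin sum, and EIF2AK1, GATA1, KLF1, ZBTB7A, NPRL3, AHSP, ALAS2, GATA3 and GAPDH. UROS, SLC25A37, SLC48A1, HMOX2 and RHBDF1 are named in the closing part because their groups did not overlap, chosen after their values were seen. Alternatives were other scalings (median-ratio, quantile, an equal sum of the other genes), other filters (none, or a mean of 1 FPKM), 0.1 as pseudocount, eBayes with no trend, blocks of replicate number, summed pairs and each library left out.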

Additional observations from a re-analysis of the deposited data

How the results depend on the processing

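Under all 15 alternatives, 0 genes and 0 globin genes were called by limma. 4 alternatives (both filters, eBayes without a trend and the block) cannot change a fold change. Under the others, 80 of 94 globin fold changes kept their direction and 14 turned. The cause of each turn was not tested beyond the library left out. HBZ turned to 0.053 with quantile normalization and to 0.013 with an equal sum of the other genes, and reached 0.043, 0.034, 0.036 and 0.018 without sh-luc unnumbered, sh-luc r2, sh-up91 unnumbered and sh-up91 r2. HBA2 turned when summed with HBA1 (0.019). HBA1 turned to -0.0012 without sh-luc r1 and to -0.026 without sh-up91 r1. HBQ1 turned to 0.00070 with an equal sum of the other genes, to 0.050 without sh-luc r1 and to 0.055 without sh-up91 unnumbered. HBD turned to 0.12 without sh-luc unnumbered, and HBB to 0.00081 without sh-up91 r1. Leaving out each library gave -0.079 to 0.043 for HBZ, -0.026 to 0.052 for HBA1, -0.056 to 0.055 for HBQ1, -0.15 to -0.0095 for HBA2, -0.32 to 0.12 for HBD and -0.21 to 0.00081 for HBB, which was at -0.60 with a pseudocount of 0.1. Over all alternatives HBE1 stayed between -0.13 and -0.07, HBG2 between -0.24 and -0.03 and HBG1 between -0.29 and -0.06. Leaving out each library, the difference in total globin FPKM ranged from -839 to -75.5 and that in the fetal share of beta-like FPKM from -0.33 to 0.069 percentage points. That in the HBE1 share ranged from -0.071 to 0.332 points, that in the HBB and HBD share from -0.0065 to 0.0019 points, that in the HBZ share of alpha-like FPKM from -1.08 to 0.227 points and that in the ratio of alpha-like to beta-like FPKM from 0.020 to 0.083. Of 210 list medians, 11 moved by more than the spread between libraries, 5 of them for the red cell membrane list. The 210 include those with no filter, with eBayes without a trend and with the block, which cannot change these medians.

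With the replicate number as a block, 0 genes and 0 globin genes were called, and 533 genes had an unadjusted p under 0.05. Deviations of same-numbered libraries from their group means correlated at 0.044 (unnumbered), 0.385 (r1) and -0.34 (r2), so the numbers were not taken as a pairing. Low FPKM limits HBD and HBB, and shared sequence limits the single values of HBA1, HBA2, HBG1 and HBG2.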

Other observations

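Beside AHSP, a few genes of the heme list had groups that did not overlap, and they were named after their values were seen. UROS, an enzyme of heme synthesis, was at 16.4, 17.8 and 17.1 FPKM in sh-luc and at 18.3, 21.3 and 17.9 FPKM in sh-up91 (log2 fold change 0.15, adjusted p 0.930 in limma). The mitochondrial iron importer SLC25A37 was at 18.9 to 20.2 FPKM in sh-luc and 20.5 to 21.2 FPKM in sh-up91, and the heme transporter SLC48A1 at 14.3 to 16.4 FPKM and 16.4 to 19.01 FPKM. The lowest sh-up91 value of SLC48A1 exceeded the highest sh-luc value by less than the rounding shown. HMOX2, which degrades heme, was at 50.9, 43.4 and 42.8 FPKM in sh-luc and at 39.6, 41.3 and 42.6 FPKM in sh-up91. That makes 3 of 18 heme genes higher and 1 lower without overlap, beside 4.04% and 3.03% of all genes tested, and 0 were called. The count depended on the scaling, tried after seeing the data. With median-ratio scaling it was 1 higher (UROS) and 1 lower, as SLC25A37 and SLC48A1 then overlapped, and with an equal sum of the genes other than globin it was 3 higher and 0 lower, as HMOX2 then overlapped. Next to the alpha cluster, RHBDF1 was lower in each sh-up91 library, at 1.98, 2.10 and 2.09 FPKM in sh-luc and 1.95, 1.85 and 1.78 FPKM in sh-up91, and it overlapped with an equal sum of the genes other than globin. Of the 10 matched neighbours, 1 was lower and 0 higher without overlap, beside 3.03% and 4.04% of all genes tested.

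GATA3, a lymphoid factor of the GATA1 family, was at 0.24, 0.35 and 0.21 FPKM in sh-luc and at 0.45, 0.45 and 0.41 FPKM in sh-up91, far below GATA1 in every library. Each sh-up91 library lay above each sh-luc library, beside 4.04% of all genes tested (log2 fold change 0.18, adjusted p 0.930 in limma). At levels this far below the added 1 FPKM the log2 value understates the change, and the single values are imprecise. The ratio of the group means was 1.64. An exact permutation test gave p = 0.1, and the log2 fold change was 0.17 without sh-luc unnumbered.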
